A study of Homo sapiens with 15 samples.

Results

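A set of 33 genes of the NRF2 antioxidant response and of NADPH supply was followed in HK-2 cells, an immortalised line of human renal proximal tubule epithelium. The set was taken by gene symbol from a table of 24880 loci, and every symbol was found there. Of the 33 genes, 28 reached 1 FPKM (fragments scaled to transcript length and to the mapped total) in at least 3 of 15 libraries and were tested, among 12467 loci that did so. GPX2, AKR1B10, AKR1C1, AKR1C2 and ABCC2 did not.

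The line is labelled WT, was kept in DMEM/F12 medium with fetal bovine serum and antibiotics, and had its polyadenylated RNA sequenced. Groups of 3 libraries each received TGFb at 2 ug/ml with FT895, a selective inhibitor of the histone deacetylase HDAC11, for 12 h or 1 h, or the same TGFb with the vehicle DMSO for 12 h or 1 h. The remaining 3 libraries are mock cells, which received PBS and are labelled 0 h. No label gives a dose for FT895, no group received FT895 without TGFb, and mock differs from the TGFb groups in vehicle and time as well as in TGFb. The labels leave unstated whether replicates were separate cultures, and p-values therefore cover only the spread between libraries.

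NRF2, encoded by NFE2L2, is a transcription factor that KEAP1 holds in the cytoplasm and marks for degradation. When electrophiles or oxidants modify KEAP1, NRF2 builds up, pairs with a small MAF protein and binds antioxidant response elements (AREs) near genes for glutathione and thioredoxin metabolism, quinone and carbonyl reduction, NADPH supply and drug export. NRF2 is regulated mainly through protein stability, so its own transcript need not follow its activity. Proximal tubule cells carry a high oxidative and xenobiotic load, and the pathway is known there for protection against tubular injury.

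The letters of the core ARE, TGACNNNGC, were searched on both strands in RefSeq promoter windows (GRCh38.p14, 250 bases before to 50 bases after a transcript start). The set had a window for 28 of its 33 genes, and 10 of these 28 (35.7%) held the motif, beside 4384 of 27305 genes with a window (16.1%). Those with windows that passed the filter held it in 9 of 24 genes (37.5%). The following windows were picked among those with a match, because their genes fell (PIR, TXNRD1), rose (ME1) or moved both ways (GCLM) with time under TGFb. The windows of AKR1B1, SQSTM1, TXN, NQO1 and UGDH, which also moved, held no match. Sequence outside the windows was not searched, so no match here does not mean that a gene lacks an ARE. Each reads 5′ to 3′ on the strand of its gene, and capitals mark the core ARE on either strand.
ME1, chr6:83431002-83431301, minus strand: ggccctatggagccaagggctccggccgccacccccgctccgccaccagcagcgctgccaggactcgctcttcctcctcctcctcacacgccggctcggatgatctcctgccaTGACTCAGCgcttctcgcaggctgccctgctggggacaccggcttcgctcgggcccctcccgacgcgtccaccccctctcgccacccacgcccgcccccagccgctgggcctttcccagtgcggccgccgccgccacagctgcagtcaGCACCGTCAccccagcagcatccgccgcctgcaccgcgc
GCLM, chr1:93909381-93909680, minus strand: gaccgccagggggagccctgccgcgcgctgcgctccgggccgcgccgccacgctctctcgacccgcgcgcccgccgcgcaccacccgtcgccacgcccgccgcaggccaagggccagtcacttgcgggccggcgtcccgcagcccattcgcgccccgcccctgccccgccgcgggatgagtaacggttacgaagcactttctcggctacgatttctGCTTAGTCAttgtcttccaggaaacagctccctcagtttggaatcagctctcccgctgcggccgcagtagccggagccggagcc
PIR, chrX:15493284-15493583, minus strand: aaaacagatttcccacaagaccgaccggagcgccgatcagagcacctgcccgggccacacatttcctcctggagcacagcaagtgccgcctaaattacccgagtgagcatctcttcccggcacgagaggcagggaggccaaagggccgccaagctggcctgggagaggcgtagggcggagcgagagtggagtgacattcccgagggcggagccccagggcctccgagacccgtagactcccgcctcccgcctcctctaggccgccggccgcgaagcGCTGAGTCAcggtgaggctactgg
TXNRD1, chr12:104215529-104215828, plus strand: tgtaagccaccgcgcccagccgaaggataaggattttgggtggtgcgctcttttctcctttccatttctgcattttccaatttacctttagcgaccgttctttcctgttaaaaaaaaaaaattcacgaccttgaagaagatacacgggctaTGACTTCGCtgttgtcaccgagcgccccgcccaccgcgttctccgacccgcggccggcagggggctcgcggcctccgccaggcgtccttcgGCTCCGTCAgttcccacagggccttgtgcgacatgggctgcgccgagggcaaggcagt

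In ME1 the match TGACTCAGC lay 137 bases before the start and a match on the other strand lay 11 bases after it. The GCLM match lay 34 bases before the start and read TGACTAAGC on the other strand. PIR had its match 26 bases after the start, also on the other strand, where it read TGACTCAGC. In the TXNRD1 window shown, matches lay 99 and 8 bases before the start. A second TXNRD1 window, chr12:104286782-104287081, belongs to another transcript start. It held a match 102 bases before that start, which read TGACAAAGC on the other strand. The first 7 letters of TGACTCAGC also spell the AP-1 motif, so these letters do not point to 1 factor. A match describes sequence, not binding, and no binding was measured.

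Read depth cannot be recovered from FPKM, so the precision of each value is judged from the spread between libraries. Summed FPKM ran from 386532 to 434520 per library. The highest sum was that of TGFb 1 h replicate 1, with at most 406560 in the other 14, and the residual SD of its log2 values was 0.211, beside 0.107 to 0.156 in those 14. For 12 h against 1 h of TGFb, the counts over the whole set and the changes of its called genes are given with and without it. Those of genes and lists outside the set are given only with it. Of 17 proximal tubule markers, 5 passed the filter, GGT1, MME, PAX8 and CDH6 among them, and LRP2, the megalin receptor of that epithelium, was listed at 0 in all libraries. Of 11 epithelial markers, 9 passed, and CDH1 was listed at 0. Of 9 endothelial markers none passed, VWF, KDR and FLT1 were listed at 0, and their summed level was 0.127 to 0.300 FPKM over all libraries. Of 10 leukocyte markers, CD68 and CSF1R passed, and PTPRC, which marks leukocytes in general, reached at most 0.0142 FPKM. The leukocyte list summed to 41.3 to 44.4 FPKM in mock, 42.9 to 47.3 FPKM at 1 h of TGFb and 35.9 to 40.7 FPKM at 12 h. CD68, which makes up most of that sum, averaged 34.8 FPKM at 12 h and 42.2 FPKM in mock and was called down, while CSF1R averaged 2.64 FPKM at 12 h and 0.151 FPKM in mock and was called up. Of 10 fibroblast and pericyte markers, 3 passed, and the list summed to 23.2 to 23.6 FPKM in mock, 20.0 to 23.7 FPKM at 1 h of TGFb and 58.6 to 65.3 FPKM at 12 h. Of the 3, COL1A1 averaged 45.4 FPKM at 12 h and 2.44 FPKM in mock and was called up, LUM (5.63 FPKM at 12 h and 9.68 FPKM in mock) was called down, and RGS5 was not called. PDGFRA was listed at 0 in every library. Of 10 distal nephron and podocyte markers, PODXL passed. In bulk RNA, fewer cells of a kind and less RNA per cell cannot be told apart.

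The set spanned a wide range of levels in mock cells. PRDX1, a peroxiredoxin that reduces hydrogen peroxide, was the highest at 678 ± 7.82 FPKM (mean ± SD, n = 3 here and below), rank 60 of the 12467 loci tested. AKR1B1, aldose reductase, followed at 582 ± 23.3 FPKM and rank 75, and TXN, the thioredoxin that hands electrons to peroxiredoxins, at 261 ± 8.15 FPKM and rank 185. TKT, the transketolase of the pentose phosphate pathway, stood at 235 ± 5.47 FPKM. The neighbours in this order were separated by more than their spread. Next came MGST1, TXNRD1, PGD, TALDO1 and SQSTM1, between 147 and 108 FPKM. AKR1C3 (1.55 ± 0.159 FPKM) and OSGIN1 (1.98 ± 0.232 FPKM) were the lowest of the 28. The 5 untested genes stayed near 0, with AKR1C2 listed at 0 in 13 libraries and AKR1B10 in 10. AKR1C and GSTM genes have close paralogs, so how reads were split between them is uncertain.

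**Figure D1:**
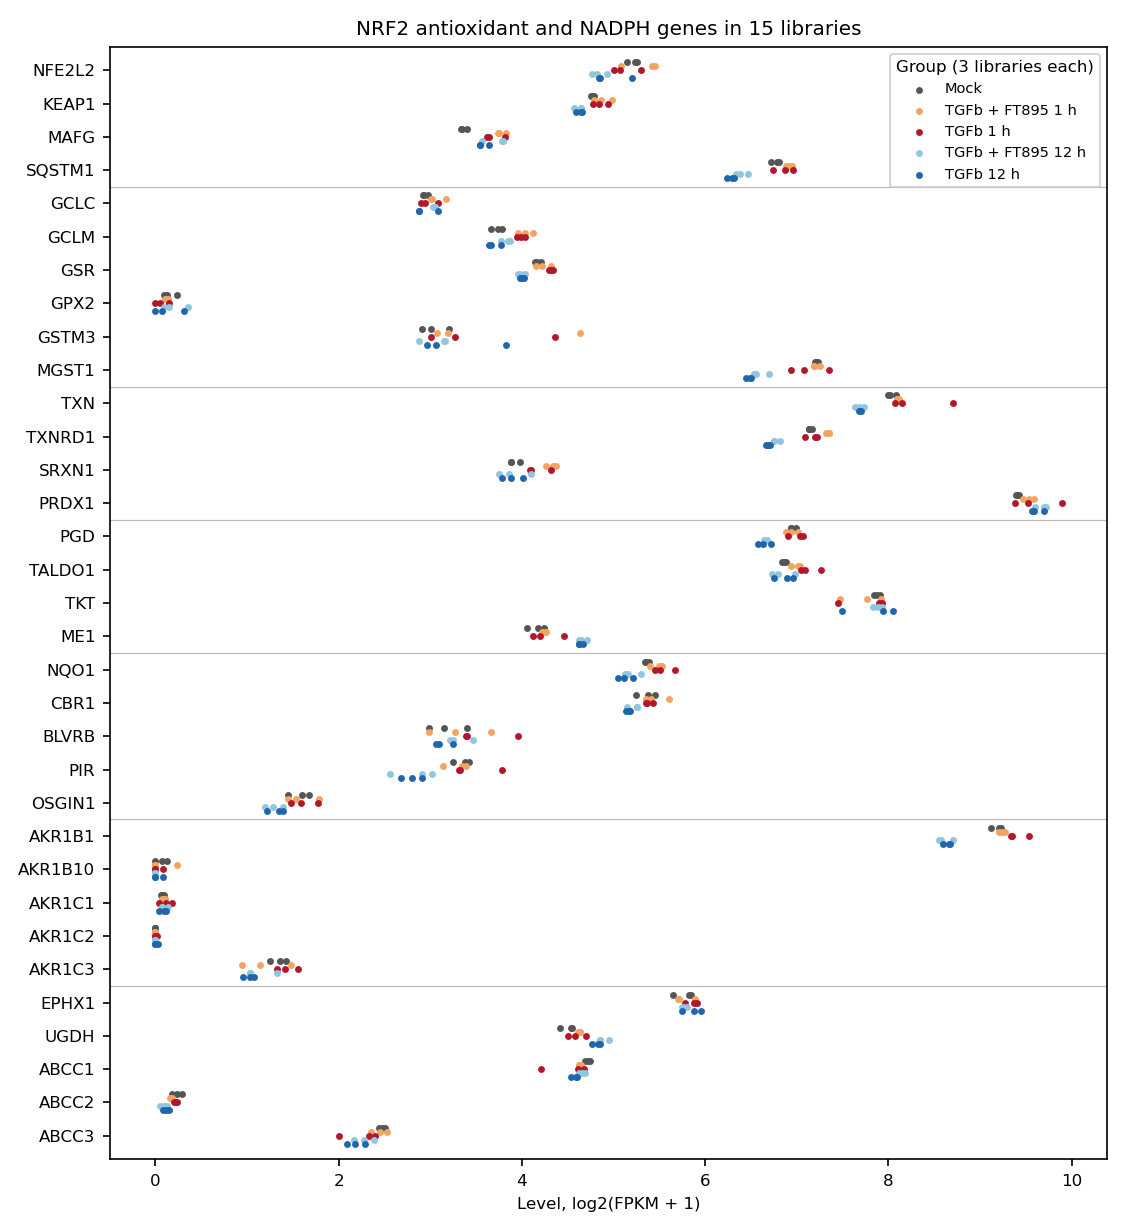
Level of each of the 33 genes on the log2(FPKM + 1) scale in all 15 libraries, with 1 point per library, colours for the 5 groups and grey lines between functional classes. PRDX1 and AKR1B1 lie at the high end, the 5 genes that did not pass the filter lie near 0, and for many genes the 12 h points, with or without FT895, lie left of the 1 h and mock points.

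Between 1 h and 12 h of TGFb the set moved mostly downward. On the log2(FPKM + 1) scale, which understates changes of low genes, 17 of the 28 tested genes fell and 2 rose at an adjusted p under 0.05 (limma, Benjamini-Hochberg over all 12467 loci), while 41% of all loci were called. That is 60.7% falling, against 24.2% of all loci, and 7.14% rising, against 16.8%. The 12 h and 1 h libraries did not overlap for 19 of the 28 genes, against 46.2% of all loci. The median change was -0.27 in the set and -0.04 over all loci. All 5 tested quinone, heme and carbonyl reductases and related targets fell, as did 3 of 4 thioredoxin genes, both tested aldo-keto reductases and 3 of 5 glutathione genes. ME1 and UGDH rose. The next counts, with 1 library left out, stand without calls over all loci and are not a result about the set. Without TGFb 12 h replicate 1, 11 genes fell. Without TGFb 1 h replicate 1, 14 fell and 3 rose. Without that library the log2 changes of called genes whose values without it are not given below were -0.64 for SQSTM1, -0.52 for TXNRD1, -0.41 for PGD, -0.36 for NQO1 and for OSGIN1, -0.33 for GSR, -0.28 for GCLM, -0.26 for KEAP1, -0.24 for CBR1, -0.20 for TALDO1 and 0.27 for UGDH. Each of these was called with and without it. Rescaling by median of ratios left 13 of the 28 genes falling and 2 rising, beside 2391 falling and 2514 rising of all 12467 loci. Rises were then 51.3% of the calls over all loci, beside 41.1% on the deposited scale.

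Against mock, 12 h of TGFb gave a smaller shift in the same direction for most of these genes. There 11 of the 28 genes fell (39.3%, against 24.5% of all loci) and 3 rose (10.7%, against 14.2%), while 38.6% of all loci were called either way. The groups did not overlap for 19 of the 28 genes, against 54.9% of all loci. The median change was -0.16 in the set and -0.08 over all loci. With median-of-ratios scaling 6 of the 28 genes fell and 4 rose, beside 2043 falling and 2293 rising of all 12467 loci. Rises were then 52.9% of the calls over all loci, beside 36.7% on the deposited scale. Without mock replicate 1, and likewise without TGFb 12 h replicate 3, 7 genes fell. Calls over all loci without those libraries are not given beside this count. SQSTM1, MGST1, TXNRD1, PGD, PIR and AKR1B1 fell and ME1 and UGDH rose in the fit and in each of its 12 alternatives. The comparisons of 12 h with 1 h and with mock share the 12 h libraries and are not independent.

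**Figure D2:**
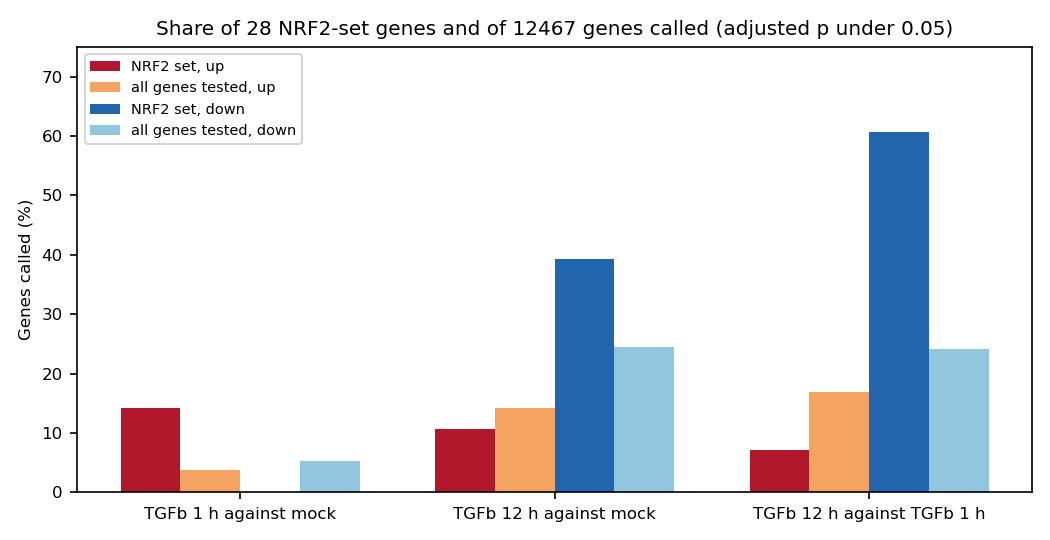
Percentage of the 28 tested genes of the NRF2 set and of all 12467 loci tested that were called up or down in each time comparison (adjusted p under 0.05). The falling share of the set is 60.7% for 12 h against 1 h of TGFb, beside 24.2% of all loci, and no gene of the set was called down for 1 h against mock.

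Among sensors and transcription factors, the transcript of NRF2 itself was not called between mock, 1 h and 12 h of TGFb with vehicle. NFE2L2 had 37.2, 36.7 and 34.4 FPKM in mock, 38.5, 31.1 and 32.5 FPKM after 1 h of TGFb, and 35.8, 28.0 and 27.7 FPKM after 12 h. The groups overlapped, and its log2 change at 12 h against mock was -0.25 (95% interval -0.49 to -0.01, adjusted p = 0.0985, limma). Without TGFb 12 h replicate 1, the library with 35.8 FPKM, that change was -0.36 and called. KEAP1, the sensor, fell at 12 h against 1 h (log2 change -0.23, adjusted p = 0.00704, limma). MAFG, a small MAF partner of NRF2, was higher than mock at both times, with log2 changes of 0.33 at 1 h (adjusted p = 0.0128, limma) and 0.22 at 12 h (adjusted p = 0.0285, limma). Each of these calls was lost in 3 of 12 alternatives. SQSTM1 (chr5:179806398-179838078, plus strand; positions here and below are those of GENCODE 29 on GRCh38, and all are protein-coding genes), or p62, is a selective autophagy receptor that sequesters KEAP1 and is itself an NRF2 target. It stood at 111, 109.6 and 105 FPKM in mock, at 106, 124 and 116 FPKM after 1 h of TGFb, and at 74.5, 78.6 and 77.3 FPKM after 12 h. The 12 h libraries lay below all 6 others. The log2 change was -0.58 ± 0.06 (SE) against 1 h (adjusted p = 2.65e-06, limma) and -0.49 ± 0.06 against mock (adjusted p = 1.17e-05, limma).

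In the glutathione class the changes were unequal. MGST1 (chr12:16347142-16609259, plus strand), a membrane-bound glutathione transferase, had 149, 147 and 146 FPKM in mock, 162, 122 and 135 FPKM after 1 h of TGFb, and 89.3, 88.8 and 86.5 FPKM after 12 h. The 12 h libraries were the lowest and closest to each other, and the 1 h libraries surrounded the mock values. Against 1 h its log2 change was -0.64 ± 0.08, and -0.53 without TGFb 1 h replicate 1, called in both. MGST1 had the deepest fall of the set against mock, with a log2 change of -0.73 ± 0.08 (0.601-fold on the FPKM + 1 scale, adjusted p = 4.99e-06, limma). GCLM, the modifier subunit of the enzyme that begins glutathione synthesis, had 11.7, 12.8 and 12.3 FPKM in mock, 15.4, 14.9 and 14.4 FPKM after 1 h and 11.5, 12.7 and 11.7 FPKM after 12 h. It was thus above mock in all 3 libraries at 1 h and overlapped mock at 12 h. GCLC, the catalytic subunit of the same enzyme, was not called in any comparison, with group means between 6.69 and 7.41 FPKM. GSR, which reduces oxidised glutathione with NADPH, fell by 0.32 on the log2 scale against 1 h and by 0.17 against mock. Its call against mock was lost in 3 of 12 alternatives. GSTM3, another glutathione transferase, stood out in single libraries, at 19.6 FPKM in TGFb 1 h replicate 2, 23.8 FPKM in TGFb with FT895 1 h replicate 2 and 13.2 FPKM in TGFb 12 h replicate 3. GSTM3 therefore has the widest intervals of the set and no call.

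In the thioredoxin system the reductase moved most evenly. TXNRD1 (chr12:104215779-104350305, plus strand), which recharges thioredoxin with electrons from NADPH, had 142, 139 and 140.0 FPKM in mock, 136, 146 and 148 FPKM after 1 h of TGFb, and 102, 104 and 100.4 FPKM after 12 h. All 12 h libraries lay below the others, with log2 changes of -0.48 ± 0.05 against 1 h (adjusted p = 1.41e-06, limma) and -0.46 ± 0.05 against mock (adjusted p = 2.24e-06, limma). TXN had 254, 259 and 269.7 FPKM in mock, 417, 267 and 284 FPKM after 1 h, and 204, 205 and 208 FPKM after 12 h. The 417 FPKM belongs to TGFb 1 h replicate 1, and without that library the log2 change of TXN at 12 h against 1 h was -0.42, beside -0.62 with it. TXN was called in both, but its fall against mock (-0.34, adjusted p = 0.0297, limma) kept its call in only 4 of 12 alternatives. SRXN1, which repairs over-oxidised peroxiredoxins, had 13.7, 13.7 and 14.8 FPKM in mock, 18.9, 16.0 and 16.1 FPKM after 1 h, and 13.8, 15.1 and 12.8 FPKM after 12 h. It fell against 1 h (-0.27, adjusted p = 0.025, limma), and without TGFb 1 h replicate 1 the change was -0.20 and not called. PRDX1 was not called in any comparison, with means of 678 ± 7.82 FPKM in mock, 784 ± 148 FPKM at 1 h and 787 ± 37.3 FPKM at 12 h. Without TGFb 1 h replicate 1 PRDX1 rose at 12 h against 1 h (0.17, adjusted p = 0.0331, limma).

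**Figure D3:**
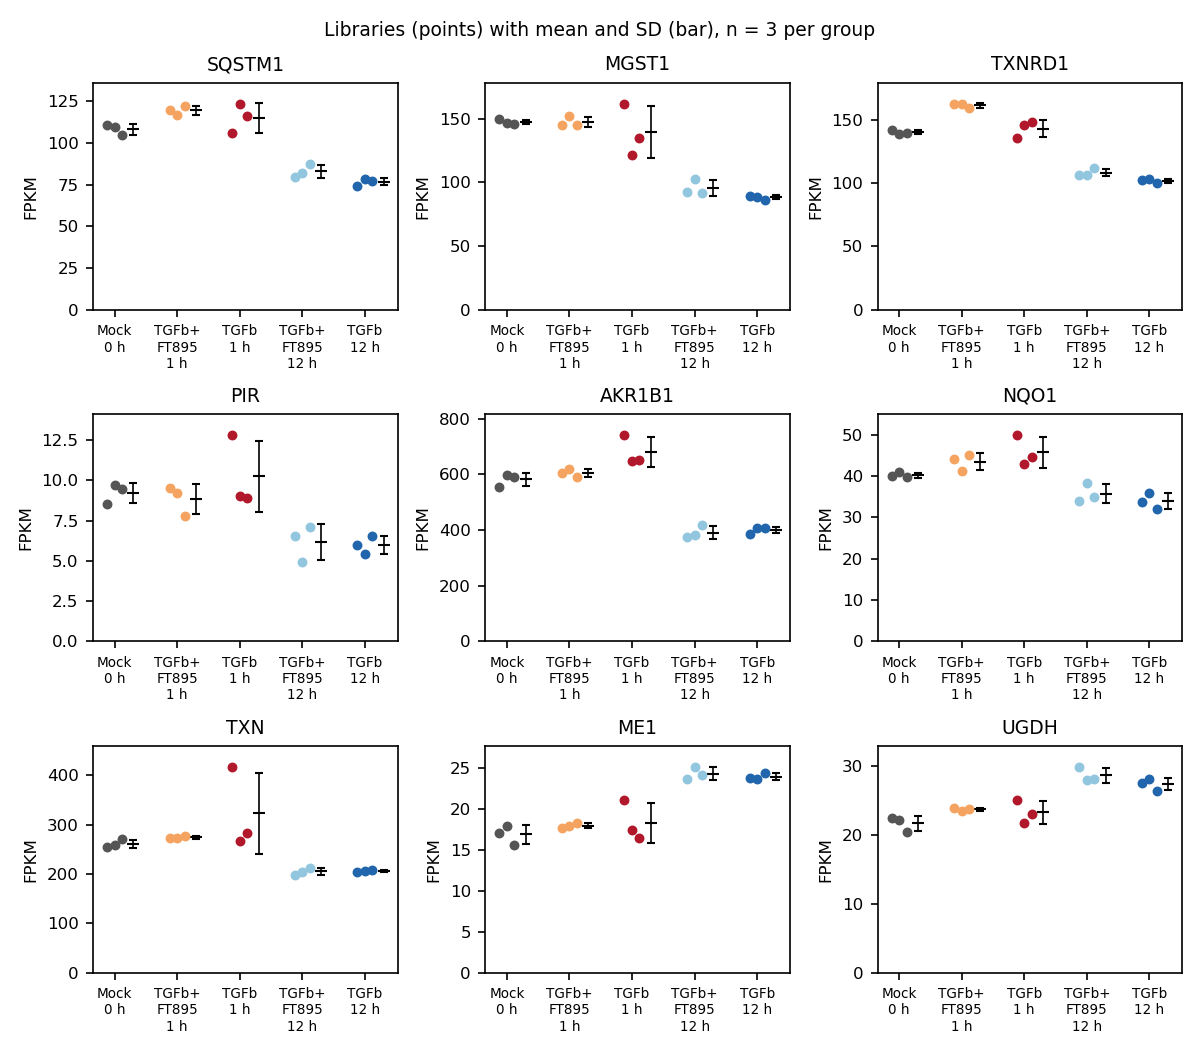
FPKM of 9 genes of the set in each library, by group, with the group mean and its SD (n = 3) beside the points. SQSTM1, MGST1, TXNRD1, PIR, AKR1B1, NQO1 and TXN are lowest in the 12 h groups with and without FT895, and ME1 and UGDH are highest there. TGFb 1 h replicate 1 is the high point of MGST1, PIR, AKR1B1, NQO1 and TXN.

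The enzymes of NADPH supply divided. ME1 (chr6:83210389-83431071, minus strand), the cytosolic malic enzyme, which makes NADPH while turning malate into pyruvate, had 17.1, 17.9 and 15.6 FPKM in mock, 21.0, 17.4 and 16.4 FPKM after 1 h of TGFb, and 23.7, 23.7 and 24.4 FPKM after 12 h. The 12 h libraries lay above all 6 others, and the log2 change was 0.48 ± 0.08 against mock (adjusted p = 0.000161, limma) and 0.38 ± 0.08 against 1 h (adjusted p = 0.00119, limma). Without TGFb 1 h replicate 1 the change against 1 h was 0.48 and called. PGD (chr1:10398592-10420144, plus strand), which makes NADPH in the oxidative pentose phosphate pathway, had 121, 126 and 122 FPKM in mock, 119, 133 and 130.0 FPKM after 1 h, and 94.3, 104 and 98.3 FPKM after 12 h. PGD thus moved opposite to ME1, with a log2 change of -0.31 against mock (adjusted p = 0.00047, limma) and -0.36 against 1 h (adjusted p = 0.000152, limma). TALDO1, the transaldolase of the non-oxidative branch, averaged 116 ± 1.90 FPKM in mock, 140.0 ± 11.6 FPKM at 1 h and 116 ± 8.24 FPKM at 12 h. It rose at 1 h, a call lost in 8 of 12 alternatives, and its 12 h libraries overlapped mock. TKT was not called in any comparison, and 3 libraries from 3 different groups (173 to 179 FPKM) lay below its other values.

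All 5 genes of the quinone, heme and carbonyl class fell between 1 h and 12 h, with NQO1 and PIR called in each of the 12 alternatives and the others not. NQO1 (chr16:69706996-69726951, minus strand), the quinone reductase most used as a readout of NRF2, had 40.0, 40.9 and 39.8 FPKM in mock, 49.96, 42.9 and 44.6 FPKM after 1 h of TGFb, and 33.7, 36.0 and 32.1 FPKM after 12 h. All 1 h libraries lay above mock and all 12 h libraries below it, although the rise at 1 h was not called (log2 change 0.18, adjusted p = 0.109, limma). The fall of NQO1 was -0.42 ± 0.07 against 1 h (adjusted p = 0.000194, limma) and -0.24 ± 0.07 against mock (adjusted p = 0.0112, limma). Against mock its call was lost with median-of-ratios scaling (-0.16, adjusted p = 0.101, limma) and without TGFb 12 h replicate 3. PIR (chrX:15384799-15493564, minus strand), an iron-binding nuclear protein, had 8.51, 9.72 and 9.44 FPKM in mock, 12.8, 9.04 and 8.93 FPKM after 1 h, and 5.98, 5.40 and 6.51 FPKM after 12 h. Its 12 h libraries were separate from both other groups, with log2 changes of -0.68 ± 0.13 against 1 h (adjusted p = 0.00105, limma) and -0.56 ± 0.13 against mock (adjusted p = 0.00445, limma). PIR was also called against 1 h without TGFb 1 h replicate 1 (-0.52, adjusted p = 0.00333, limma). BLVRB, which reduces biliverdin and flavins, had 9.55, 6.95 and 7.89 FPKM in mock, 14.5, 9.56 and 9.52 FPKM after 1 h, and 7.55, 8.51 and 7.38 FPKM after 12 h. Its log2 change of -0.45 against 1 h (adjusted p = 0.0481, limma) was -0.26 without TGFb 1 h replicate 1, and was then not called. CBR1, a carbonyl reductase, fell by 0.22 on the log2 scale against 1 h, and OSGIN1, an oxidative stress-induced growth inhibitor, by 0.29. Over 12 alternatives the call against 1 h was lost in 9 for OSGIN1, 8 for BLVRB and 4 for CBR1.

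AKR1B1 (chr7:134442350-134459284, minus strand), which reduces glucose and lipid aldehydes with NADPH, had the deepest fall of the set against 1 h. It had 556, 599 and 592 FPKM in mock, 741, 649 and 652 FPKM after 1 h of TGFb, and 387, 407 and 406 FPKM after 12 h. The 3 groups did not overlap, with 1 h above mock and 12 h below it. The log2 change was -0.76 ± 0.06 at 12 h against 1 h (0.589-fold, adjusted p = 3.48e-07, limma), -0.54 ± 0.06 at 12 h against mock (adjusted p = 1.03e-05, limma) and 0.22 ± 0.06 at 1 h against mock (adjusted p = 0.0437, limma). Without TGFb 1 h replicate 1, the library with 741 FPKM, the change of AKR1B1 at 12 h against 1 h was -0.70 and still called. The rise of AKR1B1 at 1 h against mock was 0.16 without that library and not called, and lost its call in 9 of 12 alternatives. AKR1C3, an aldo-keto reductase of steroids and prostaglandins, had 1.56, 1.70 and 1.38 FPKM in mock, 1.95, 1.51 and 1.67 FPKM after 1 h, and 0.940, 1.11 and 1.05 FPKM after 12 h. At this low level it fell by 0.41 on the log2 scale against 1 h (adjusted p = 0.0175, limma), and without TGFb 1 h replicate 1 the change was -0.35 and not called.

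In detoxification and export only UGDH rose. UGDH (chr4:39498755-39528311, minus strand) makes UDP-glucuronic acid, the donor for glucuronidation and also a precursor of hyaluronan and other matrix sugars. It had 22.4, 22.2 and 20.4 FPKM in mock, 24.99, 21.7 and 23.0 FPKM after 1 h of TGFb, and 27.5, 27.99 and 26.3 FPKM after 12 h. Every 12 h library was above the others, with log2 changes of 0.32 ± 0.06 against mock (adjusted p = 0.000578, limma) and 0.22 ± 0.06 against 1 h (adjusted p = 0.00732, limma). ABCC3, an exporter of conjugates, averaged 3.55 ± 0.305 FPKM at 12 h and 4.56 ± 0.119 FPKM in mock, and its fall of 0.29 on the log2 scale (adjusted p = 0.0303, limma) kept its call in 4 of 12 alternatives. ABCC1, another conjugate exporter, and EPHX1, an epoxide hydrolase, were not called in any comparison.

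**Figure D4:**
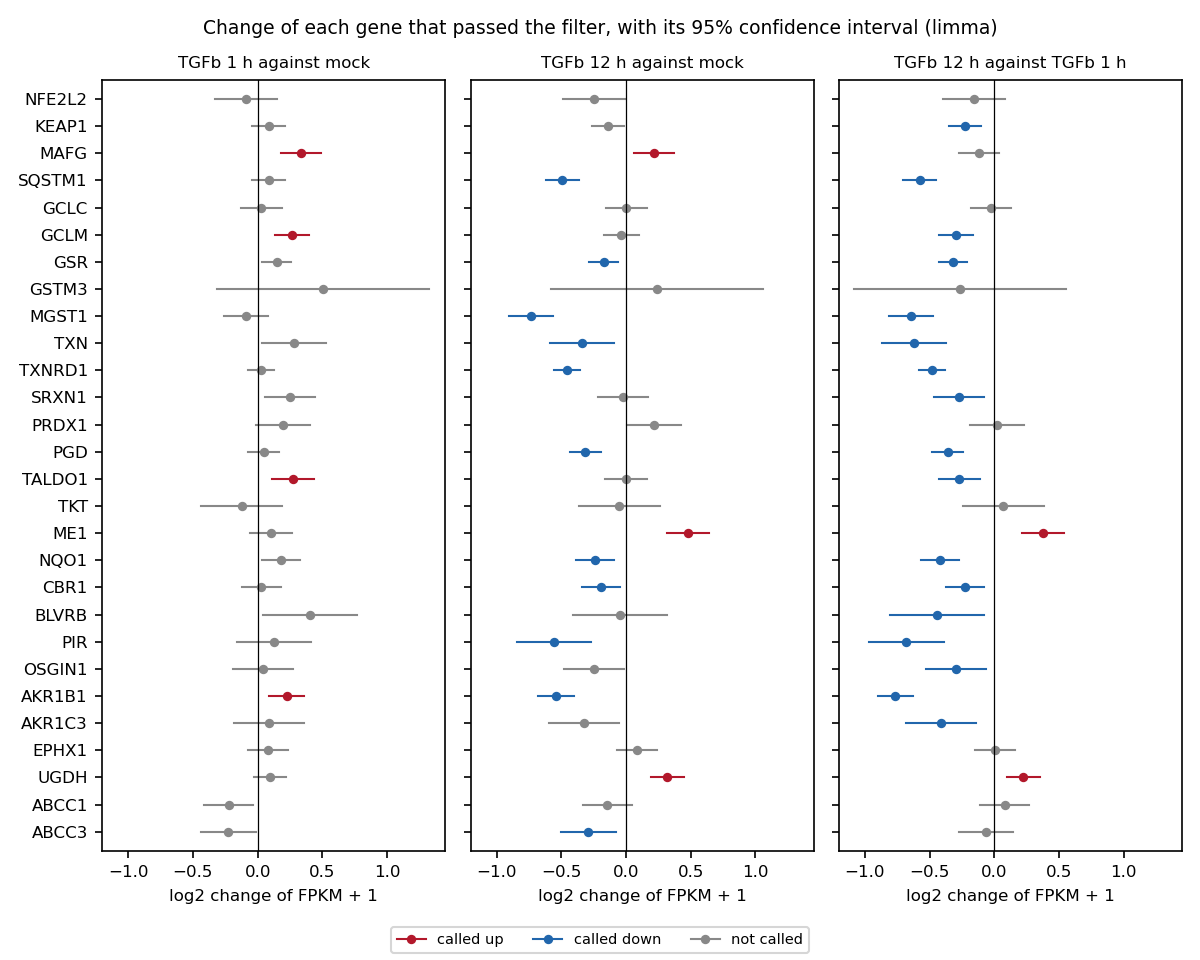
Log2 change of FPKM + 1 for each of the 28 tested genes with its 95% confidence interval (limma), for TGFb 1 h against mock, TGFb 12 h against mock and TGFb 12 h against TGFb 1 h. AKR1B1, PIR, MGST1, TXN and SQSTM1 lie farthest left for 12 h against 1 h, while ME1 and UGDH lie right of 0 for 12 h against both references.

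After 1 h of TGFb, 4 of the 28 genes rose against mock and none fell. The 4 were MAFG, GCLM, TALDO1 and AKR1B1 (14.3%, against 3.70% of all loci rising, 5.28% falling and 8.98% called either way). The groups did not overlap for 9 of the 28 genes, against 29.9% of all loci, with 7 genes above mock and 2, ABCC1 and ABCC3, below it. The median change was 0.09 in the set and -0.03 over all loci. With median-of-ratios scaling 5 of the 28 genes rose, beside 584 rising and 514 falling of all 12467 loci. Rises were then 53.2% of the calls over all loci, beside 41.2% on the deposited scale. MAFG had 11.5, 11.3 and 13.1 FPKM at 1 h, against 9.08, 9.55 and 9.19 FPKM in mock, so its groups did not overlap. None of the 4 calls was kept in all 12 alternatives. Without TGFb 1 h replicate 1, MAFG and GCLM rose and MGST1 fell (-0.20, adjusted p = 0.0377, limma), while 6 rose and 1 fell without TGFb 1 h replicate 2. No gene of the set was called up without mock replicate 1 or without mock replicate 3. Calls over all loci with 1 library left out are not given beside these counts.

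Adding FT895 to TGFb gave no call in the set, at either time. At 1 h 0 of the 28 genes passed, against 0.0722% of all loci, and 2 had an unadjusted p under 0.05, against 13.8% of all loci. Those 2 were TXNRD1 and AKR1B1. TXNRD1 had 163, 162 and 159 FPKM with FT895 and 136, 146 and 148 FPKM with vehicle, so the groups did not overlap, and its log2 change was 0.17 (95% interval 0.07 to 0.27, adjusted p = 0.182, limma). AKR1B1 had 604, 619.7 and 591 FPKM with FT895 and 741, 649 and 652 FPKM with vehicle, a log2 change of -0.17 (95% interval -0.30 to -0.03, adjusted p = 0.276, limma). Without TGFb 1 h replicate 1 these changes were 0.14 for TXNRD1 and -0.11 for AKR1B1, and neither was called. Over the set, 3 of 28 genes did not overlap between FT895 and vehicle at 1 h, against 16.3% of all loci.

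At 12 h 0 of the 28 genes passed for FT895, against 0.016% of all loci, and 1 had an unadjusted p under 0.05, against 6.15% of all loci. That gene was GCLM, with 12.7, 13.4 and 13.7 FPKM with FT895 and 11.5, 12.7 and 11.7 FPKM with vehicle (log2 change 0.14, adjusted p = 0.803, limma). SQSTM1 at 12 h had 79.8, 82.1 and 87.3 FPKM with FT895 and 74.5, 78.6 and 77.3 FPKM with vehicle (log2 change 0.11, 95% interval -0.01 to 0.24). MGST1 had 92.7, 103 and 91.5 FPKM with FT895 and 89.3, 88.8 and 86.5 FPKM with vehicle (log2 change 0.12, 95% interval -0.06 to 0.29). Like TXNRD1 and ABCC1, these last genes had every FT895 library above every vehicle library, which makes 4 of 28, against 13.9% of all loci. ME1 averaged 24.3 ± 0.782 FPKM with FT895 and 23.9 ± 0.410 FPKM with vehicle, less than 1 SD apart. NQO1 averaged 35.8 ± 2.37 FPKM with FT895 and 33.9 ± 1.94 FPKM with vehicle. The 95% intervals reached a median of 0.16 to either side of the estimate on the log2 scale, and 0.82 for GSTM3, so changes within those bounds cannot be told from none. The difference between the FT895 effects at 12 h and at 1 h was tested as an interaction and gave 0 calls in the set, against 0.168% of all loci (0.144% positive and 0.0241% negative), with 0 genes at an unadjusted p under 0.05, against 7.84% of all loci.

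**Figure D5:**
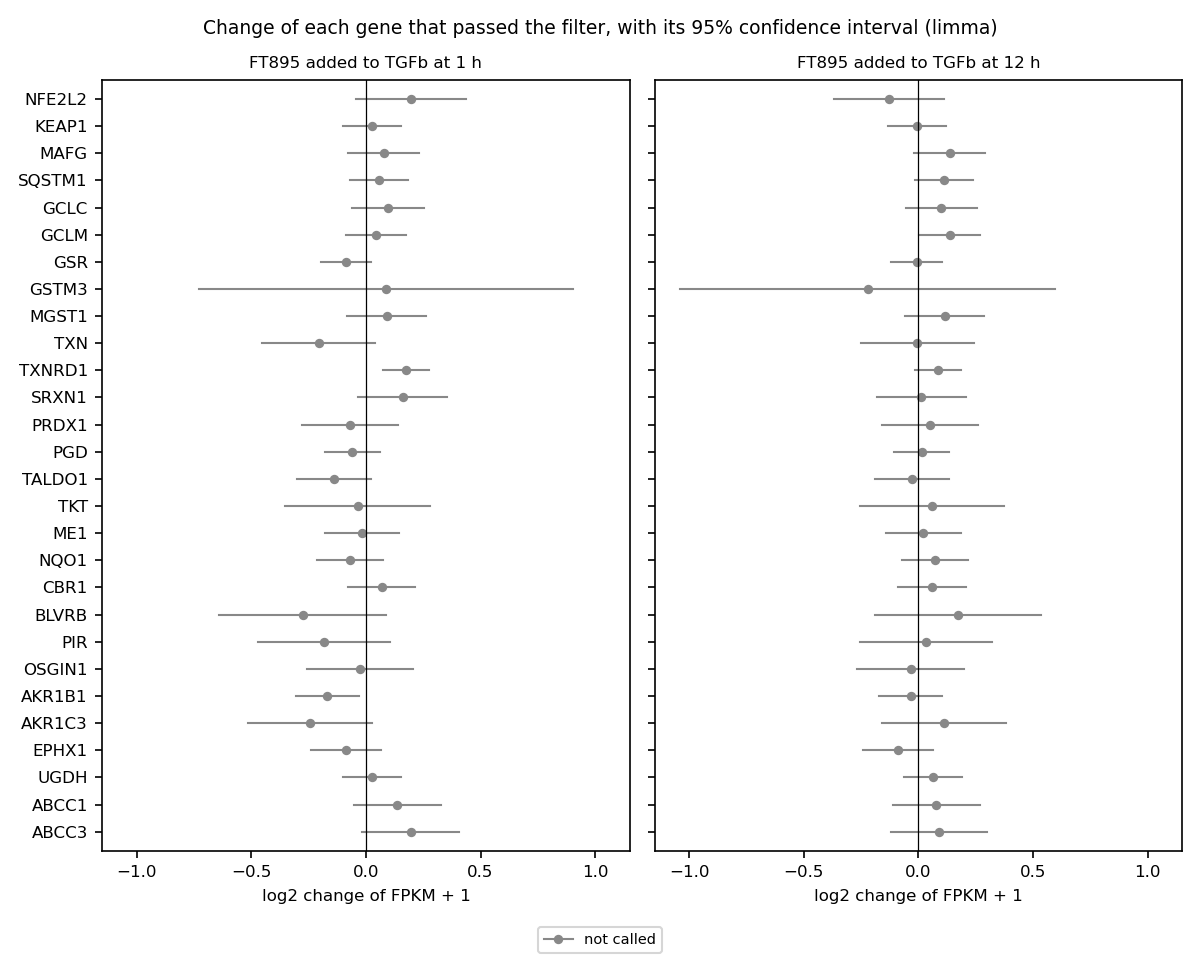
Log2 change of FPKM + 1 for each of the 28 tested genes when FT895 was added to TGFb, with its 95% confidence interval (limma), at 1 h and at 12 h. No gene was called, most intervals cross 0, and GSTM3 has the widest interval in both panels.

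The fall with time was also present in the cells that received FT895. Between 12 h and 1 h of TGFb with FT895, 15 of the 28 genes fell, against 24.8% of all loci, and 2 rose, against 13.5%, with 38.2% of all loci called. The 2 that rose were ME1 and UGDH, as without FT895, and 14 of the falling genes fell in both comparisons. With FT895 present AKR1B1 had 375, 381 and 417 FPKM at 12 h, against 604, 619.7 and 591 FPKM at 1 h. SQSTM1 had 79.8, 82.1 and 87.3 FPKM at 12 h with FT895, against 120, 117 and 122 FPKM at 1 h with FT895. For both genes all 12 h libraries lay below all 1 h libraries. MGST1 had 92.7, 103 and 91.5 FPKM at 12 h with FT895, against 145, 152 and 145 FPKM at 1 h with FT895. TXNRD1 had 107, 107 and 112 FPKM at 12 h with FT895, against 163, 162 and 159 FPKM at 1 h with FT895. TXN had 198, 204 and 213 FPKM at 12 h with FT895, against 272.5, 272.5 and 277 FPKM at 1 h with FT895. These 3 genes were also lower in every 12 h library. NQO1 had 34.0, 38.5 and 34.9 FPKM at 12 h with FT895, against 44.2, 41.3 and 45.2 FPKM at 1 h with FT895. PIR had 6.51, 4.91 and 7.08 FPKM at 12 h with FT895, against 9.52, 9.18 and 7.79 FPKM at 1 h with FT895. SRXN1 had 12.5, 13.5 and 16.2 FPKM at 12 h with FT895, against 19.3, 19.7 and 18.3 FPKM at 1 h with FT895. The groups were separate for each of these. ME1 was higher in every 12 h library, with 23.6, 25.1 and 24.1 FPKM at 12 h with FT895, against 17.7, 17.8 and 18.3 FPKM at 1 h with FT895. BLVRB overlapped, with 10.04, 8.29 and 8.51 FPKM at 12 h with FT895, against 8.67, 6.94 and 11.6 FPKM at 1 h with FT895. AKR1C3 overlapped too, with 1.05, 1.05 and 1.51 FPKM at 12 h with FT895, against 1.21, 1.79 and 0.929 FPKM at 1 h with FT895. NFE2L2 had 26.1, 29.5 and 27.4 FPKM at 12 h with FT895, against 41.9, 42.7 and 32.98 FPKM at 1 h with FT895, groups that did not overlap. It fell with FT895 present (-0.48, adjusted p = 0.00375, limma) and was not called without it, but its interaction of -0.32 did not pass (adjusted p = 0.655, limma). With median-of-ratios scaling 10 of the 28 genes fell and 2 rose with FT895 present, beside 1944 falling and 2266 rising of all 12467 loci. Rises were then 53.8% of the calls over all loci, beside 35.2% on the deposited scale.

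Other genes of the pathway came from lists outside the set. Of 17 tested regulators of NRF2, 3 rose (17.6%) and 3 fell (17.6%) at 12 h against mock, beside 14.2% and 24.5% of all loci. At 1 h 3 rose (17.6%) and 1 fell (5.88%), beside 3.70% and 5.28% of all loci. At 12 h against 1 h of TGFb 1 rose (5.88%) and 7 fell (41.2%), beside 16.8% and 24.2% of all loci. MAFK, another small MAF protein, averaged 31.2 ± 1.92 FPKM at 1 h and 13.2 ± 0.371 FPKM in mock (log2 change 1.18, adjusted p = 4.46e-09, limma). CDKN1A, the cell cycle inhibitor p21, which can also bind NRF2, averaged 13.6 ± 0.382 FPKM at 1 h and 6.45 ± 0.558 FPKM in mock. Both were lower at 12 h than at 1 h of TGFb. BACH1, a repressor that competes with NRF2 for AREs, averaged 6.59 ± 0.223 FPKM at 12 h and 8.75 ± 0.387 FPKM in mock (log2 change -0.36, adjusted p = 0.003, limma). PALB2, which can bind KEAP1, fell by 0.39 on the log2 scale at 12 h against mock.

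Of 23 tested NRF2 targets outside the set, 4 rose (17.4%) and 7 fell (30.4%) at 12 h against mock, near the 14.2% and 24.5% of all loci. At 12 h against 1 h of TGFb 3 rose (13.0%) and 7 fell (30.4%), beside 16.8% and 24.2% of all loci and 60.7% of the set falling. HMOX1, the heme oxygenase, averaged 14.2 ± 0.963 FPKM at 12 h of TGFb and 7.69 ± 0.738 FPKM in mock (log2 change 0.81, adjusted p = 3.61e-07, limma), so it moved opposite to most of the set. With FT895 at 12 h HMOX1 averaged 24.4 ± 0.258 FPKM, beside 14.2 ± 0.963 FPKM with vehicle (log2 change 0.74, adjusted p = 0.000391, limma). Its FT895 effect was larger at 12 h than at 1 h (interaction 0.54, adjusted p = 0.046, limma). That call lies close to the threshold, and HMOX1 was not followed through the alternatives, such as leaving out TGFb 1 h replicate 1. SLC7A11, the cystine importer that feeds glutathione synthesis, averaged 3.69 ± 0.465 FPKM at 12 h and 1.86 ± 0.219 FPKM in mock (log2 change 0.71, adjusted p = 2.40e-05, limma). ABCC4, an exporter, averaged 8.64 ± 0.365 FPKM at 12 h and 20.0 ± 0.579 FPKM in mock (log2 change -1.13, adjusted p = 3.13e-08, limma). SLC48A1, a heme transporter, fell by 0.91 on the log2 scale at 12 h against mock.

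Of 29 tested peroxide and thiol enzymes outside the set, 2 rose (6.90%) and 17 fell (58.6%) at 12 h against 1 h of TGFb, beside 16.8% and 24.2% of all loci. This count was not taken without TGFb 1 h replicate 1. Against mock 3 rose (10.3%) and 8 fell (27.6%), near the 14.2% and 24.5% of all loci. SOD2, the mitochondrial superoxide dismutase, averaged 23.2 ± 2.56 FPKM at 12 h and 52.0 ± 3.40 FPKM in mock (log2 change -1.13, adjusted p = 0.00018, limma). TXNIP, which binds and inhibits thioredoxin, averaged 51.1 ± 0.921 FPKM at 12 h and 92.1 ± 1.92 FPKM in mock (log2 change -0.84, adjusted p = 4.92e-09, limma). The inhibitor, TXN and TXNRD1 thus all fell at 12 h against mock. TXNIP already averaged 57.4 ± 2.84 FPKM at 1 h of TGFb, when TXN and TXNRD1 did not average below mock. CHAC1, which degrades glutathione, rose by 0.64 on the log2 scale at 12 h against mock, and its relative CHAC2 fell by 0.49. Of 16 tested NADPH supply genes outside the set, 2 rose and 4 fell at 12 h against mock, near the 14.2% and 24.5% of all loci. At 12 h against 1 h of TGFb 2 rose (12.5%) and 3 fell (18.75%), beside 16.8% and 24.2% of all loci. ALDH1L2, a mitochondrial folate enzyme that makes NADPH, averaged 5.43 ± 0.684 FPKM at 12 h and 3.32 ± 0.0840 FPKM in mock (log2 change 0.57, adjusted p = 0.000248, limma). IDH1, the cytosolic isocitrate dehydrogenase that makes NADPH, fell by 0.37 on the log2 scale at 12 h against mock, as did MTHFD1, a cytosolic folate enzyme, and ME3, a mitochondrial malic enzyme, rose by 0.47 at 12 h against 1 h.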

How the data were processed

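The submitters' processing notes name HISAT2, StringTie and the GRCh38 build. They give no tool versions, annotation release or strandedness. The authors deposited FPKM, with 1 column per library, and the read depth behind these values is unknown. Low values showed no unit of whole reads: among 693 to 807 low loci in each of 15 library pairs, the fullest bin of log2 ratios held 1.59 to 2.76%.

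Values were analysed as log2(FPKM + 1), for loci that reached 1 FPKM in 3 or more of the 15 libraries, with limma 3.58.1 under R 4.3.3. The model had 1 mean per group over all 15 libraries (lmFit, eBayes with trend, 10 residual degrees of freedom). A gene was called at a two-sided Benjamini-Hochberg adjusted p under 0.05 over all 12467 loci tested, and "rose" and "fell" are used of called genes. Alternatives were a pseudocount of 0.1, no filter on low values, median-of-ratios scaling, quantile normalization, only the groups compared, the replicate number as a block, and each library left out. The fit was tested on simulated data. The comparison of 12 h with 1 h under FT895 was added after seeing the data.

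The genes of the set, the other lists and the tests were chosen with earlier results of these data known. Values are given in every library for genes called in 1 or more of the 6 comparisons with an absolute log2 change of at least 0.4, and for others that the text turns on, and up to 4 called genes are named from each other list. Gene symbols were matched to GENCODE 29, and promoter windows came from RefSeq (GRCh38.p14). FPKM cannot show how reads of paralogs or antisense transcripts were split.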

Additional observations from a re-analysis of the deposited data

How the results depend on the processing

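At 1 h of TGFb against mock, 4 genes of the set rose, beside 461 of all loci. With quantile normalization 2 rose, beside 451 of all loci. In the same comparison 2 rose without the filter, 2 with the replicate block and 0 with only the groups compared. Leaving out 1 library gave 0 to 6 rising and 0 to 1 falling there. At 12 h against mock, 11 genes fell, beside 3049 of all loci. With median-of-ratios scaling 6 fell, beside 2043 of all loci, and 7 to 10 fell with 1 library left out. At 12 h against 1 h of TGFb, 17 genes fell and 2 rose, beside 3013 and 2100 of all loci. With quantile normalization 14 fell and 3 rose, beside 2567 and 2291 of all loci. Only 1 rose with only the groups compared, and 11 to 16 fell with 1 library left out. The cause of these differences was not tested. Where calls over all loci are not given, fewer calls in the set cannot be told from fewer calls over all loci. The counts for FT895 and for its interaction with time were 0 in every alternative. No called gene of the set changed sign in any alternative. The 10 genes called with a log2 change of at least 0.4 in size in 1 or more of the 6 comparisons gave 780 values. Of these, 748 kept their side of the threshold, 29 lost a call and 3 gained one. Many of the 780, those for FT895 among them, come from comparisons without a call and could lose none. Over 12 alternatives AKR1B1 lost 9 calls at 1 h against mock. At 12 h against mock TXN lost 8 and NQO1 2, and at 12 h against 1 h BLVRB lost 8 and AKR1C3 2. No pairing by replicate number was seen. Of 30 same-numbered pairs, 2 correlated above 0.1 (-0.14 to 0.11), and 3 of 15 libraries correlated best with their own number. Such correlations cannot show whether same-numbered libraries came from a common culture. Depth is unknown, and 3 libraries a group limit what can be seen.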
